A study of Mus musculus with 4 samples.

Results

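The cells described here were erythroid cells near the end of their maturation, found in libraries that had been prepared from spleen to study T cells (Tc). Their RNA was dominated by hemoglobin transcripts. They were chosen by measured values: a cell was a member if it had at least 500 detected genes, at least 1000 gene UMIs (unique molecular identifiers, each standing for 1 captured RNA molecule) and at most 10% mitochondrial UMIs, held no UMI of Cd3d, Cd3e or Cd3g, and drew at least 20% of its gene UMIs from 4 adult globin genes, Hba-a1, Hba-a2, Hbb-bs and Hbb-bt. The last value is called the hemoglobin share. The rule found 865 members among 11632 kept cells. They are compared with 2214 lower-hemoglobin erythroid cells, which also held no Cd3 UMI, had a hemoglobin share under 20% and carried at least 2 UMIs of Klf1, a master transcription factor of erythroid cells. The rule itself made this contrast, so differences in RNA levels between the classes are given as a description with no test. A test between the classes is given for the antibody tag only.

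Each of the 4 libraries came from the spleen of 1 BALB/c mouse on day 23 after BM transplantation. All recipients had received lethal total body irradiation, 10000 WEHI-3B cells (a myelomonocytic leukemia line of BALB/c origin), C57BL/6 BM and, on day 2, 200000 donor Tc. In 2 mice the donor BM and Tc were Havcr2fl/fl, in which Havcr2, the gene of the immune checkpoint receptor TIM-3, is flanked by loxP sites but intact. In the other 2 they were Havcr2fl/fl;E8icre/+, in which E8i-driven cre acts in CD8+ Tc. The driver is not an erythroid one, and all donor cells of both genotypes carry the floxed alleles. The labels give no age for a mouse, and the study's methods state only a common range of adult ages. The labels name a pan-T cell isolation kit and Tc as the cell type, so erythroid cells here are those that remained after the enrichment, and their share says nothing of the whole spleen. The study also speaks of sorted donor Tc where the labels give no sort, so whether these cells passed one is uncertain, and so is what their share and tag values stand for. Below, values of the 4 libraries are given in a fixed order, Havcr2fl/fl;E8icre/+ replicates 1 and 2 and then Havcr2fl/fl replicates 1 and 2.

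Red cells form through a series of divisions in which nucleated erythroblasts fill with hemoglobin, condense the nucleus and lose it. During the last divisions the cells switch from ribosome production to globin, heme and membrane proteins, and then clear mitochondria, ribosomes and most other proteins by autophagy and the ubiquitin system. In the mouse the spleen is a site of this process, above all under stress such as irradiation and transplantation. The alpha-globin genes Hba-a1 and Hba-a2 and the beta-globin genes Hbb-bs and Hbb-bt encode the chains of adult hemoglobin.

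The globin genes define these cells, and Alas2, the erythroid enzyme that starts heme synthesis, is one of the cell type markers that the rule did not use. The 150 bases before their RefSeq transcription starts (GRCm38.p6) are shown, since the description of the members turns on the transcripts of these genes. The windows lie at chr7:103827929-103828078 on the minus strand for Hbb-bs, chr7:103813924-103814073 on the minus strand for Hbb-bt, chr11:32283522-32283671 on the plus strand for Hba-a1 and chrX:150547267-150547416 on the plus strand for Alas2. They are printed 5′ to 3′ on the strand of the gene, and capitals mark CACCC (letters of the site that KLF1 binds), the CCAAT box, the TATA-like element ATATAA and the GATA motif AGATAA, or the reverse complement of each.
Hbb-bs: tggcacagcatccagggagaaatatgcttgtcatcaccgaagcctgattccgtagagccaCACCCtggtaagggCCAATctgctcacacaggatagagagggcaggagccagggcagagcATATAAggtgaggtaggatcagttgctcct
Hbb-bt: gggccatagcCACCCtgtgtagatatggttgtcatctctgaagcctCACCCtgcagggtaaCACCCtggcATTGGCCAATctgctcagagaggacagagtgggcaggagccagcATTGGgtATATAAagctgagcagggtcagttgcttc
Hba-a1: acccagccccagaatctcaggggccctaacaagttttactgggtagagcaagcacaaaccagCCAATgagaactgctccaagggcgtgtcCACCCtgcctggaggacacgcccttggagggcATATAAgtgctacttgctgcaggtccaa
Alas2: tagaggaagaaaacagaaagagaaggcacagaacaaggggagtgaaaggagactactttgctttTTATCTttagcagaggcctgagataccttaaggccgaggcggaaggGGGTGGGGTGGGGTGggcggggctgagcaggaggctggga

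In Hbb-bs the letters CACCC began 90 bases, CCAAT 76 bases and ATATAA 30 bases before the start. Hbb-bt held the same letters at nearly the same places, with CACCC at 89, CCAAT at 75 and ATATAA at 29 bases, and further copies of CACCC at 140 and 104 bases and of CCAAT on the opposite strand at 80 and 36 bases. In Hba-a1 the order of the first pair was turned, with CCAAT at 88 and CACCC at 60 bases. The Alas2 window held no CCAAT and no ATATAA on either strand, but CACCC on the opposite strand at 40, 35 and 30 bases and AGATAA on the opposite strand at 86 bases. Of 32851 RefSeq windows of 150 bases, searched on both strands, 37.4% held CACCC, 24.5% CCAAT, 5.35% ATATAA and 5.65% AGATAA. A match of letters is not a binding site. Over 120 aligned bases the upstream windows of Hba-a1 and Hba-a2 were 100% identical, and those of Hbb-bs and Hbb-bt 74.2%.

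The members numbered 174, 241, 120 and 330 in the 4 libraries and held 924755, 1574418, 1316571 and 1325032 gene UMIs, of which 491811, 887042, 641304 and 711945 came from genes outside hemoglobin. The median member had 4908, 5829, 9205 and 3717 UMIs and 807, 930, 988 and 758 detected genes. The lower-hemoglobin erythroid cells numbered 383, 192, 76 and 1563, and their median cell had 31547, 42366, 42372 and 20287 UMIs. Members were therefore much shallower than the cells they are compared with, in every library. Levels below are CPM, the UMIs of a gene scaled to a common library total, over genes other than the 4 globins, taken from the summed UMIs of each class and library, and a difference between classes is on the log2(CPM + 5) scale. A UMI was counted at the 3′ end of a molecule, so levels were not divided by gene length.

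Some libraries stood apart. Havcr2fl/fl replicate 1 was the smallest, with 1213 kept cells, and its members carried granulocyte RNA. Genes of the granulocyte and monocyte marker list took 1.58% of their UMIs outside hemoglobin, against 0.0246%, 0.0113% and 0.0139% in the members of the other libraries. In that library 2 members held 9959 of the 10103 UMIs of the list, mostly S100a8 and S100a9, and without them the share was 0.0235%. The Tc of the library carried 0.927% of the list. Havcr2fl/fl replicate 2 held the most lower-hemoglobin cells and the most immunoglobulin RNA, with B cell markers at 0.117% in members and 0.188% in lower-hemoglobin cells, against at most 0.0460% and 0.00413% in the other libraries. The part of these differences in the results was not tested, beyond the values given without the granulocyte-marked members. Libraries shared 28 cell barcodes over their 6 pairs, and none of the members was among them.

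The hemoglobin share had a mode near 0 and a second among members, with few cells around the 20% limit. Cells at 1 to 20% were not few in Havcr2fl/fl replicate 2, which held 381 of them and 330 members. It was at or under 0.0867% in the median lower-hemoglobin cell of each library, and 51.3%, 50.3%, 62.2% and 50.9% in the median member, up to 71.9%, 72.3%, 81.3% and 71.1%. Only 18 members lay just inside the limit, at 20 to 22%, and 21 lower-hemoglobin erythroid cells just outside, at 18 to 20%. A further set of 112 kept cells passed 20% but held a Cd3 UMI and was left out. The median Tc had a hemoglobin share of 0.0120%, 0.0189%, 0.0199% and 0.0529%, given here as the share measured in cells of another kind.

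**Figure D1:**
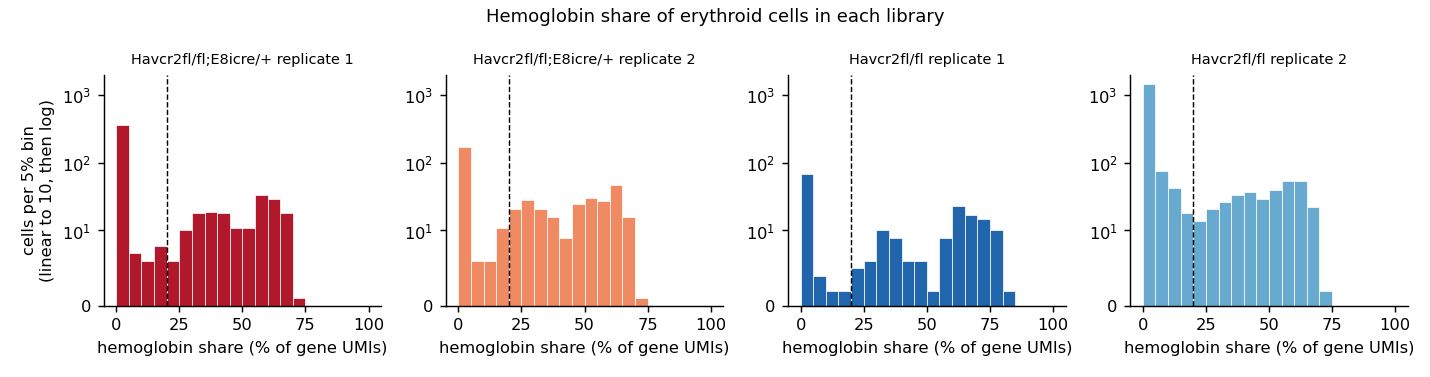
Number of erythroid cells (y axis, linear up to 10 and logarithmic above) by hemoglobin share in bins of 5% (x axis), 1 panel per library, with the 20% limit as a dashed line. The largest bin lies at the left edge, few cells lie around the limit, and members form a second mode, which in Havcr2fl/fl replicate 1 reaches the furthest right, up to 81.3%.

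Members were 5.07% of kept cells in Havcr2fl/fl;E8icre/+ replicate 1 (95% exact binomial interval 4.36 to 5.86%) and 9.45% in replicate 2 (8.34 to 10.6%), and 9.89% (8.27 to 11.7%) and 7.44% (6.68 to 8.25%) in Havcr2fl/fl replicates 1 and 2. These intervals cover counting error only. The genotypes overlapped, with means of 7.26% ± 3.09 and 8.67% ± 1.74 (SD, n = 2), and an exact two-sided permutation test gave p = 0.667. With 2 libraries against 2 this test cannot go below 0.333. Among erythroid cells the share of members was 31.2%, 55.7%, 61.2% and 17.4%, again with overlapping genotypes (exact permutation p = 1). Leaving out Havcr2fl/fl;E8icre/+ replicate 1 turned the direction of the first comparison, to a difference of 0.782 percentage points, and leaving out either Havcr2fl/fl;E8icre/+ replicate 2 or Havcr2fl/fl replicate 2 turned that of the second, to -8.09 and -17.8.

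Cell type markers that the rule did not use were also found in members. They were chosen with earlier results of these data known, so they are no independent support for the erythroid label. Of the 865 members, 590 held UMIs of all 3 of Alas2, Bpgm and Tmcc2, and 1 held none of them. Bpgm makes 2,3-bisphosphoglycerate, which lowers the oxygen affinity of hemoglobin, and Tmcc2 encodes a transmembrane protein. With each cell thinned to 1000 UMIs outside hemoglobin, which left out 13 members, Alas2 was found in 93.7% of members (mean of 4 libraries), 7.85% of lower-hemoglobin cells and 1.62% of Tc. The shares without thinning ranged from 99.4% to 100% in members, from 17.0% to 36.8% in lower-hemoglobin cells and from 2.35% to 4.32% in Tc. Slc4a1, the anion exchanger of the red cell membrane, was found in 98.4%, 12% and 1.77% after thinning. The pan-leukocyte gene Ptprc was found in 2.20% of members and 72.5% of Tc, and the T cell receptor gene Trac in 0.287% and 47.1%. Members were chosen without Cd3 UMIs and Tc by them, so the low Trac was largely set by the rule and is no separate support.

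Among 3730 genes with at least 50 CPM in a class, 806 (21.6%) were higher and 1178 (31.6%) lower in members by over 1 on the log2 scale in all 4 libraries, and the median gene differed by -0.45. These shares are the background for the counts below. The largest positive differences were those of Xpo7, Tmcc2 and Slfn14. Xpo7, a nuclear exporter needed for chromatin condensation in erythroblasts, stood at 3758, 3542, 3168 and 2622 CPM in members and at 8.49, 14.8, 15.9 and 7.02 CPM in lower-hemoglobin cells, a median log2 difference of 7.63 (SD 0.38, n = 4). Tmcc2 stood at 3560, 2682, 3275 and 1964 CPM against 8.41, 12.4, 8.66 and 10.7 CPM (7.59, SD 0.51). No library of one class came near any library of the other for these genes. Slfn14, an endoribonuclease that cleaves ribosomal RNA, stood at 1173 ± 133 against 2.53 ± 1.27 CPM (SD, n = 4).

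The other genes with the largest positive differences included Rsad2, Apol11a, Alas2, Apol11b, Bpgm, Tent5c, Fhdc1, Cd36, Slc4a1, Bcl2l1 and Tcp11l2, with median log2 differences from 6.82 (Rsad2) to 5.58 (Tcp11l2). Rsad2 encodes viperin, known as an interferon-induced antiviral enzyme, and stood at 2735, 2878, 1642 and 1719 CPM in members against at most 19.5 CPM in lower-hemoglobin cells. Bcl2l1 encodes BCL-XL, the survival factor of late erythroblasts, and stood at 612, 435, 547 and 376 CPM against 4.33 to 5.61 CPM. The largest negative differences were those of Ppp1r14b, Myb, Nhp2, Hspe1, Hspd1, Nme2, Cdk6, Aprt, Srm, Pebp1, Mybbp1a, Mif, Tagln2, Nolc1 and Mrpl12. Myb, a transcription factor of dividing progenitors, stood at 4.07, 4.51, 6.24 and 18.3 CPM in members and at 324, 356, 289 and 169 CPM in lower-hemoglobin cells. Hspe1 and Hspd1 encode the chaperonin of mitochondria. None of the 30 genes changed direction under any of the settings tried, but 119 of their 480 values under another setting moved by more than the SD between libraries. Slc4a1, at 5.70, came to 2.74 and Alas2, at 6.27, to 3.47 against erythroid cells with a hemoglobin share of 1 to 20%. Over all settings the lowest values were 4.58 for Xpo7 and 3.19 for Tcp11l2, both under a setting other than that one.

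**Figure D2:**
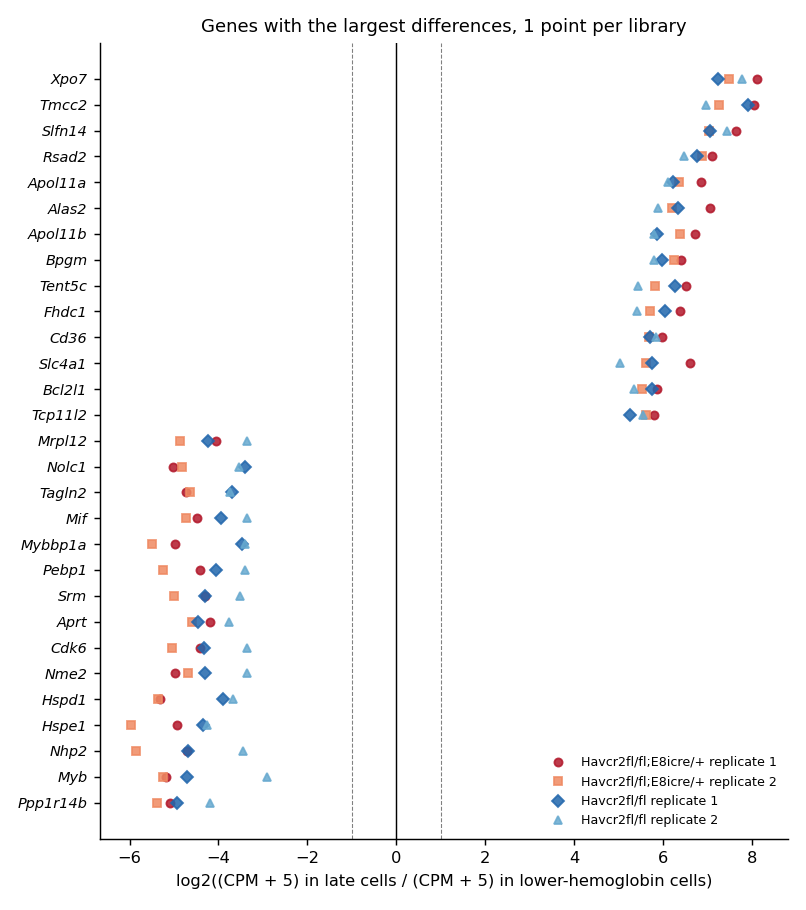
Difference between members and lower-hemoglobin erythroid cells on the log2(CPM + 5) scale (x axis) for genes among the 15 with the largest positive and the 15 with the largest negative median (y axis), 1 point per library and dashed lines at -1 and 1. Xpo7 and Tmcc2 are at the top with medians of 7.63 and 7.59, all points of a gene lie on one side of 0, and Havcr2fl/fl replicate 2 is the nearest to 0 for many of the lower genes.

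Enzymes of heme synthesis were higher in members. The 8 genes of the list, among them Alas2, Alad, Uros, Urod, Cpox, Ppox and Fech, were all past the fold in all libraries, with a list median of 3.09 on the log2 scale. Against erythroid cells with a hemoglobin share of 1 to 20% Alad and Cpox did not pass. Alas2 stood at 3782, 3664, 3981 and 3328 CPM in members and at 23.5, 44.6, 44.5 and 50.7 CPM in lower-hemoglobin cells. Fech, which places iron in the porphyrin ring, stood at 2250 ± 312 against 131 ± 17.5 CPM. Alad, the second enzyme, differed least, at 1082 ± 130 against 307 ± 57.4 CPM.

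Of 17 tested genes of heme and iron handling, 12 were higher and 1, the endosomal ferrireductase gene Steap3, was lower. The mitochondrial iron importer Slc25a37 (mitoferrin-1) had the largest difference of the list, with 5185, 4061, 3897 and 3752 CPM against 63.3, 89.4, 84.0 and 117 CPM. The transferrin receptor gene Tfrc stood at 2772 ± 569 against 415 ± 97.6 CPM. Ncoa4, which delivers ferritin for degradation, stood at 555 ± 15.8 against 26.4 ± 2.97 CPM. The ferritin genes Fth1 and Ftl1 did not pass the fold in every library, with 9595, 10523, 7488 and 13448 CPM of Fth1 in members against 4182, 3791, 3737 and 6728 CPM.

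Genes of the red cell membrane and its skeleton were higher for 21 of 22 tested members, with a list median of 2.85, and Xk was the one that did not pass in every library. Slc4a1 stood at 6783, 5363, 5300 and 4231 CPM in members and at 63.9, 104, 92.4 and 124 CPM in lower-hemoglobin cells. Epb42, which ties the exchanger to the skeleton, stood at 1121 ± 154 against 29.7 ± 9.12 CPM. Cd47, the signal that keeps macrophages from engulfing red cells, was nearer, at 2098 ± 229 against 529 ± 55.3 CPM.

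The list of organelle clearance, ubiquitin and enucleation genes had the highest median of the lists with more than 1 tested gene, 3.86, with 19 of 20 tested genes higher and Wipi1 short of the fold in a library. Xpo7 and Tmcc2 belong to it. The ubiquitin ligases and conjugating enzymes Ube2o, Ube2h, Ube2l6, Trim10 and Trim58 were all higher. Ube2o, which marks ribosomal proteins for degradation in reticulocytes, stood at 1137, 857, 917 and 784 CPM against 21.9, 19.0, 18.5 and 20.6 CPM. Ube2h stood at 723 ± 105 against 11.3 ± 2.39 CPM. Bnip3l, the receptor that leads mitochondria into autophagy, stood at 1690 ± 116 against 138 ± 16.1 CPM, and Trim58, a ligase linked to enucleation, at 170 ± 48.5 against 4.5 ± 1.06 CPM.

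Erythroid transcription factors were mixed, with 9 of 14 tested genes higher and 2 lower. The higher ones included Nfe2, a regulator of globin genes, at 737 ± 51.8 against 45.2 ± 2.74 CPM, Foxo3 at 376 ± 97.3 against 37.1 ± 3.69 CPM and Hemgn at 2900 ± 610 against 285 ± 49.8 CPM. Gata1, the central erythroid factor, did not pass the fold, at 258, 236, 270 and 232 CPM in members against 121, 141, 123 and 141 CPM. Its cofactor Ldb1 was lower, at 17.8 ± 3.35 against 106 ± 20.4 CPM, as was Bcl11a, which represses embryonic globins. Klf1 was set by the rule for the lower-hemoglobin cells and is not read.

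The 8 tested progenitor genes were lower, with a median of -3.70, and against erythroid cells with a hemoglobin share of 1 to 20% this held for 5 of 6 tested. Kit, the stem cell factor receptor, was at 2.03, 0, 0 and 1.40 CPM in members and at 74.6, 74.6, 90.7 and 36.9 CPM in lower-hemoglobin cells. Myc stood at 5.66 ± 4.47 against 136 ± 39.8 CPM. The nucleolar genes Npm1 and Ncl stood at 214 ± 104 against 3440 ± 330 CPM and at 333 ± 91.0 against 2787 ± 243 CPM. Ribosomal protein genes were lower for 65 of 81 tested and higher for none. They took 6.65%, 6.16%, 11.3% and 10.9% of UMIs outside hemoglobin in members and 28.4%, 31.5%, 32.5% and 28.6% in lower-hemoglobin cells. Transcripts of the mitochondrial genome took 1.61%, 1.32%, 0.922% and 1.70% against 3.54%, 3.12%, 1.73% and 3.36%.

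Cell cycle genes differed by phase. Of 17 tested genes of G2 and M phase, 12 were higher and none lower, with a median of 1.49, but against erythroid cells with a hemoglobin share of 1 to 20% only 2 passed, Cenpf and Ube2c, and Mki67 did not. Mki67, the proliferation marker, stood at 6216, 4179, 3310 and 3670 CPM in members against 909, 864, 940 and 1027 CPM, and Ube2c, a cofactor of the anaphase-promoting complex, at 3030 ± 421 against 361 ± 73.5 CPM. Of 14 S phase genes, Rrm2 was higher, and Mcm3 and Mcm5, which belong to the replicative helicase, were lower. Genes of cell cycle exit were higher for 6 of 7 tested. The cyclin-dependent kinase inhibitor genes Cdkn1b and Cdkn2d stood at 727 ± 110 against 31.2 ± 4.47 CPM and at 800 ± 154 against 21.4 ± 3.37 CPM, and Btg2, an antiproliferative gene, at 1146 ± 180 against 33.4 ± 13.8 CPM. After thinning, Mki67 was found in 74.5% of members and 51.4% of lower-hemoglobin cells, while Top2a was found in 32.8% and 48.0%.

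Not all red cell metabolism moved one way. Of 13 tested genes of glycolysis and redox defense, 4 were higher and 6 lower, with a median of -0.72. Bpgm (1814, 2284, 2224 and 1756 CPM against 16.2, 25.2, 30.3 and 26.3 CPM) and the peroxide-removing enzymes Gpx1, Prdx2 and Cat were the higher ones. Gpx1 stood at 11381 ± 1864 against 1227 ± 193 CPM. The glycolytic genes Ldha, Pgk1, Aldoa, Gpi1, Eno1 and Pklr were the lower ones. Ldha, which makes lactate, stood at 30.5, 6.76, 29.6 and 22.5 CPM against 477, 432, 469 and 437 CPM, and Pklr, the red cell pyruvate kinase, at 0, 0, 4.68 and 5.62 CPM against 71.0, 66.8, 58.9 and 69.3 CPM.

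Of 6 tested genes of the erythropoietin response, 4 were higher, namely Epor, Pim1, Cish and Bcl2l1. Pim1, a kinase induced by the STAT5 pathway, stood at 1244, 781, 1782 and 937 CPM against 72.1, 58.1, 71.9 and 35.3 CPM. The receptor gene Epor stood at 245 ± 36.0 against 92.7 ± 9.95 CPM. Of 5 tested genes of the heme-regulated stress response, 3 were higher and 1 lower. Eif2ak1, the kinase that slows translation when heme is short, stood at 976 ± 54.1 against 70.7 ± 14.6 CPM, and its downstream genes Atf4 and Ddit3 were higher as well, while Eif4ebp1 was lower. Against erythroid cells with a hemoglobin share of 1 to 20%, Epor, Cish, Atf4, Ddit3 and Eif4ebp1 did not pass the fold in every library, with median log2 differences of 1.09, 2.35, 1.14, 0.95 and -1.78 in place of 1.36, 2.66, 1.77, 1.98 and -2.46.

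Interferon response genes split, with 4 of 12 higher (Isg15, Ifit1, Irf7 and Isg20) and Bst2 and Ly6a lower. Isg15, a ubiquitin-like protein, stood at 5293, 6064, 3859 and 3615 CPM in members and at 186, 138, 144 and 132 CPM in lower-hemoglobin cells. Irf1 and Gbp2, which are also interferon-induced, did not pass the fold. In Tc the whole list took 0.269% ± 0.0137 of UMIs outside hemoglobin, against 0.869% ± 0.115 in members. Isg15 alone held 13031 of the 23930 UMIs of the list in members.

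Of the TIM-3 ligand genes, Lgals9 (galectin-9) was lower, a call lost against the cells of 1 to 20% hemoglobin share described below, at 157, 90.2, 126 and 108 CPM in members against 1103, 756, 1007 and 739 CPM in lower-hemoglobin cells, and Hmgb1 did not pass the fold. No UMI of Havcr2 was found in any member. Over the 2732102 UMIs outside hemoglobin of all members this allows up to 1.10 CPM, and lower-hemoglobin cells held 0.165 to 0.383 CPM. Of 5 tested MHC class I genes, Tap1 was lower and the other 4 did not pass the fold. H2-K1 stood at 832, 504, 423 and 593 CPM against 1156, 989, 1023 and 1037 CPM, and B2m, the shared light chain, at 3491, 2518, 2537 and 2724 CPM against 1641, 1376, 1803 and 1483 CPM.

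Outside hemoglobin, 25 genes took 19.7%, 22.3%, 20.1% and 18.8% of the members' UMIs, and the same number of leading genes took 14.1% to 14.9% in lower-hemoglobin cells. The first ranks belonged to Gm42418 at 25032 CPM and Malat1 at 24473 CPM, followed by the histone gene Hist1h2ap at 14711 CPM and the carbonic anhydrase gene Car2 at 12528 CPM (means of 4 libraries). Gm42418 overlaps a ribosomal RNA repeat and its counts are uncertain. Malat1 is a nuclear RNA, and it stood at 25205, 27441, 23710 and 21538 CPM in members against 2153, 2668, 2274 and 2392 CPM. Among these 25 genes Hist1h2ap varied most between libraries, at 7495, 31205, 16049 and 4094 CPM.

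These counts depended on the reference. With hemoglobin UMIs kept in the total, 382 genes were higher and 1872 lower, and the median gene differed by -1.47. Against the 465 erythroid cells with a hemoglobin share of 1 to 20%, a setting added after the data were seen, 534 of 3385 tested genes were higher and 685 lower. These cells numbered 35, 34, 15 and 381 by library, while a call needed the fold in every library. A call lost here can therefore rest on a library with few cells. Of tested genes, 6 of 8 of heme synthesis, 20 of 22 of the membrane, 18 of 20 of organelle clearance and 8 of 14 transcription factor genes were then higher. The count of higher genes was 8 of 17 in iron handling, 3 of 7 in cell cycle exit, 2 of 17 in G2 and M phase, 2 of 6 in the erythropoietin response (Epor and Cish did not pass) and 1 of 5 in the heme-regulated stress response, where Eif2ak1 passed and Atf4, Ddit3 and Eif4ebp1 did not. Of the progenitor genes 5 of 6 tested were lower, and Kit and Cd44 were under the minimum level, as was Ly6a. Myb did not pass in every library, though its median log2 difference was still -3.62. Ribosomal protein genes were lower for 65 of 81. Rrm2 was no longer higher, nor Tap1, Bst2, Mcm5 (-1.55) and Lgals9 lower, while Mcm4 and Mcm6 were lower, and Lgals9 stood at 396 ± 176 CPM in those cells.

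The gene groups followed each other along the hemoglobin share. Erythroid cells were put in bins of 0 to 0.1, 0.1 to 1, 1 to 20, 20 to 40, 40 to 60 and 60 to 100%, which held 1307, 442, 465, 263, 346 and 256 cells. Ribosomal protein genes took 30.5%, 30.4%, 28.2%, 11.6%, 6.18% and 5.07% of UMIs outside hemoglobin (means of 4 libraries). The drop thus fell at the 20% limit and the next bin. S phase genes took 0.267%, 0.447%, 0.523%, 0.573%, 0.104% and 0.0223%, and were highest in the first bin of members and lowest in the last. G2 and M phase genes took 0.497%, 0.807%, 1.05%, 2.5%, 1.92% and 0.361%, and so stayed high for a bin longer than S phase genes. The organelle clearance list took 0.0902%, 0.134%, 0.246%, 0.745%, 2.95% and 6.41%, most of it in the last bins. Heme synthesis took 0.122%, 0.261%, 0.401%, 1.12%, 1.77% and 2.13%. The median cell had 5539, 4978, 3487, 1792, 918 and 657 genes along the bins, so depth moved with all these values, and its part in them was not tested. Cells under the 20% limit also had to hold 2 Klf1 UMIs and members did not, so the step at the limit cannot be told apart from this condition.

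**Figure D3:**
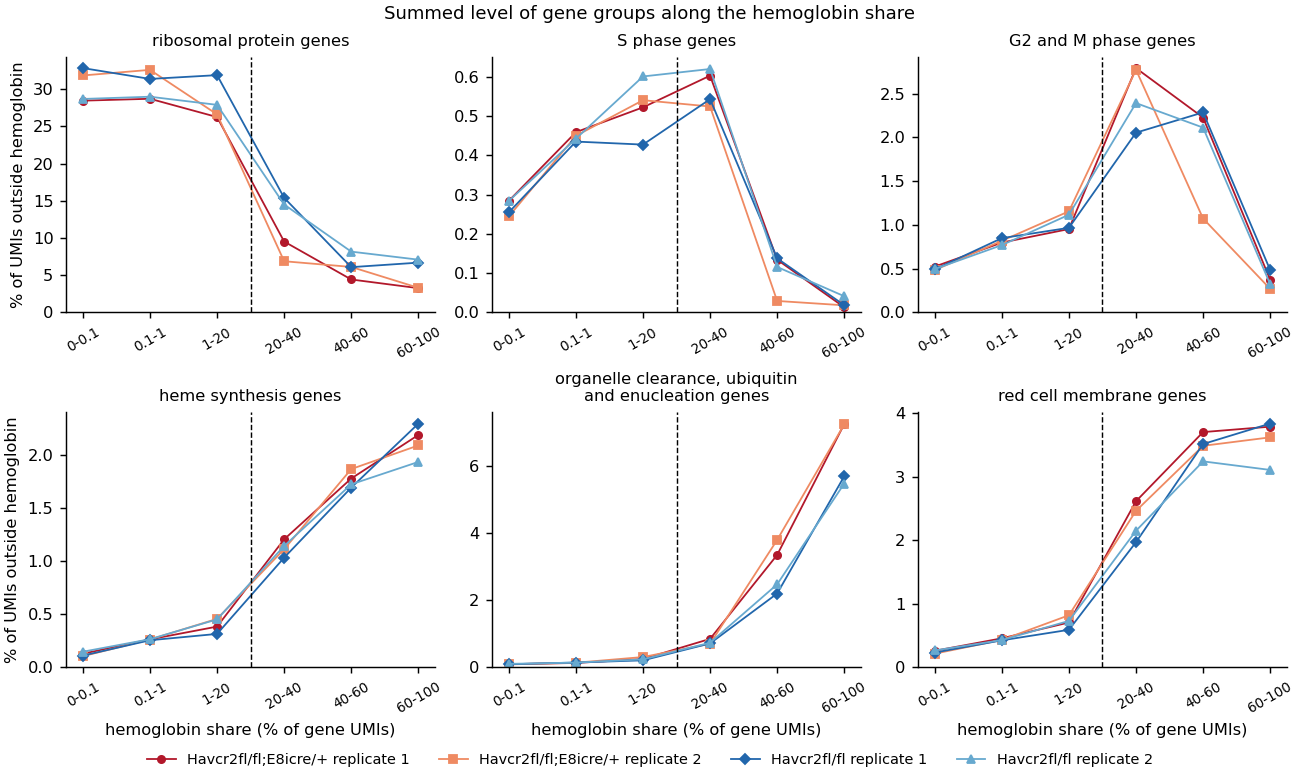
Share of UMIs outside hemoglobin taken by 6 gene groups (y axes, percent) in 6 bins of hemoglobin share (x axis), 1 line per library, with a dashed line at 20%. Ribosomal genes drop from 28.2% to 11.6% across the limit, G2 and M phase genes peak in the 20 to 40% bin at 2.5%, and organelle clearance genes are highest in the last bin at 6.41%.

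Single genes followed the same order inside the members. Xpo7 stood at 236, 3915 and 11209 CPM in the bins of 20 to 40, 40 to 60 and 60 to 100% (means of 4 libraries), and Tmcc2 at 384, 3251 and 9256 CPM. Alas2 was already at 1910 CPM in the first of these bins and reached 4406 and 7441 CPM, and Slc4a1 went from 4022 to 6611 and 7389 CPM. Hemgn went the other way, at 3735, 2904 and 639 CPM, as did Mki67 at 5674, 4107 and 1121 CPM and Top2a at 2081, 1006 and 73.0 CPM. Ccnd3, the cyclin that sets the number of erythroid divisions, stood at 374, 86.8 and 4.75 CPM while the inhibitor gene Cdkn1b stood at 241, 1036 and 1661 CPM. Pcna, the replication clamp, stood at 869, 120 and 35.9 CPM. Levels of these genes thus differed between the bins of members, which were cut on the value that chose the members. Depth also moved along the bins, and its part was not tested. The libraries filled the bins unequally. The last bin held 27.6%, 26.6%, 55.8% and 23.3% of the members of the 4 libraries, so Havcr2fl/fl replicate 1 lay furthest along.

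The rule used the sum of the 4 globin genes and not its makeup. Members held 524218 UMIs of Hba-a1, 291147 of Hba-a2, 1270291 of Hbb-bs and 323018 of Hbb-bt. Of the other globins, Hbq1b, a theta-globin gene, had 405 ± 29.1 CPM against 3.89 ± 2.16 CPM in lower-hemoglobin cells, and the embryonic genes Hbb-y, Hbb-bh1, Hbb-bh2 and Hba-x had 2 UMIs in all members together, both of Hbb-y. The ratio of alpha to beta UMIs was 0.559, 0.485, 0.578 and 0.444, with overlapping genotypes (exact permutation p = 1, n = 2 against 2). Without Havcr2fl/fl;E8icre/+ replicate 1 or Havcr2fl/fl replicate 2 the sign of this genotype difference turned. Hbb-bt made up 21.5%, 21%, 18.9% and 20.1% of beta-globin UMIs, and Hba-a2 37.3%, 36.3%, 34.2% and 35.6% of alpha-globin UMIs. Over all members the genotypes did not overlap for either, with means of 21.2% ± 0.392 against 19.5% ± 0.780 and of 36.8% ± 0.697 against 34.9% ± 0.937 (SD, n = 2), at the smallest p that an exact permutation test of 2 against 2 can give, 0.333. Within bins of hemoglobin share the genotypes overlapped for Hbb-bt at 20 to 40% and at 60 to 100%, where it made up 20.5%, 19.5%, 18.1% and 19.9%, and did not overlap at 40 to 60%. For Hba-a2 they did not overlap in any of the 3 bins, by the least at 20 to 40% (31.9%, 30.5%, 28.4% and 30.4%).

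The makeup of the UMIs counted for both chains moved with the hemoglobin share. Hbb-bt made up 40.4%, 50.7%, 28.6%, 22.1%, 19.9% and 19.5% of beta-globin UMIs along the 6 bins (means of 4 libraries). Hba-a2 made up 32.0%, 20.3%, 27.0%, 30.3%, 35.5% and 39.7% of alpha-globin UMIs. The Hba-a2 share thus was lowest at 0.1 to 1% and highest in the last bin, while the Hbb-bt share peaked at 0.1 to 1% and was near 20% in the 3 bins of members. The first bin, 0 to 0.1%, also holds the median hemoglobin share of Tc. In Tc of that bin Hbb-bt made up 21.5%, 21.5%, 19.9% and 27.5% of beta-globin UMIs, below the 41.6%, 37.1%, 44.3% and 38.6% of the erythroid cells, and how much of the latter is background was not tested. In Tc of the 0.1 to 1% bin, 21 to 412 cells per library, Hbb-bt made up 40.2%, 25%, 64.3% and 41%, a range that spans the 49.9% to 51.5% of the erythroid cells. The last 200 bases of the Hba-a1 and Hba-a2 transcripts are 99.5% identical, so how reads were split between them is uncertain. Cells of the C57BL/6 donor and the BALB/c recipient were not separated. How reads of either strain were assigned to Hbb-bs and Hbb-bt was not tested, so the Hbb-bt share may depend on the mix of strains. The ratio of alpha to beta moved little, at 0.511, 0.506 and 0.531 in the 3 bins of members.

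**Figure D4:**
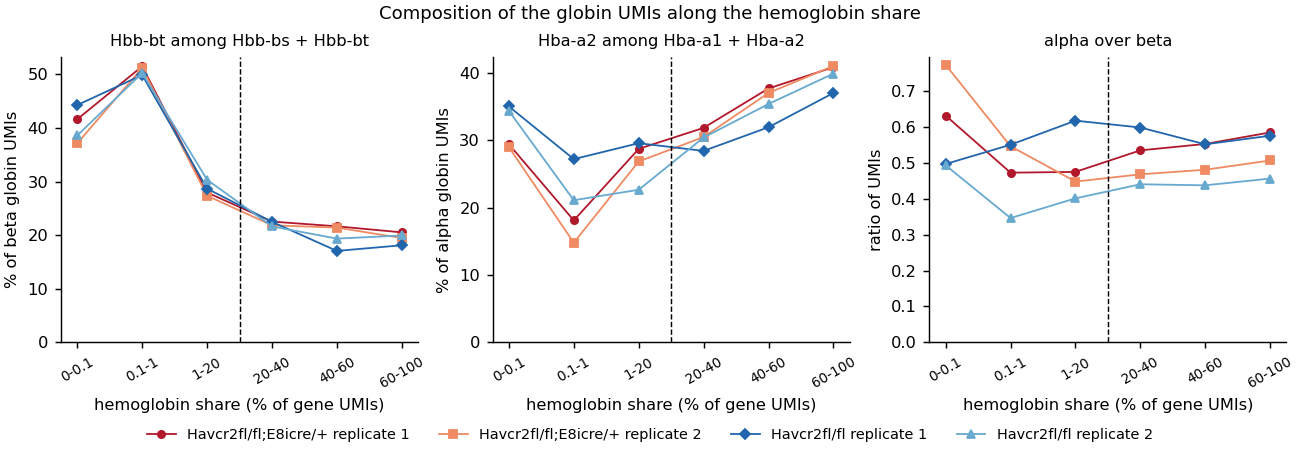
Hbb-bt as percent of beta-globin UMIs, Hba-a2 as percent of alpha-globin UMIs and the ratio of alpha to beta UMIs (y axes) in 6 bins of hemoglobin share (x axis), 1 line per library. Hbb-bt peaks at 50.7% in the second bin and levels off near 20%, and Hba-a2 climbs from 20.3% to 39.7%.

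The antibody tag against H-2Kb, the MHC class I allele of the donor, is a readout apart from RNA. The median member carried 1023, 925, 1402 and 554 tag UMIs, the median lower-hemoglobin cell 5520, 6432, 8017 and 3229, and the median Tc 1599, 1972, 2423 and 1243. In each library members had fewer than both, with a log2 ratio to lower-hemoglobin cells of -2.43, -2.80, -2.52 and -2.54 (mean -2.57, SD 0.158). An exact two-sided sign-flip permutation test over the 4 mice gave p = 0.125, the smallest it allows. Divided by UMIs outside hemoglobin the sign turned, to 0.987 ± 0.193 (SD, n = 4). Per 1000 UMIs outside hemoglobin the tag stood at 166 in the lowest bin of hemoglobin share and at 244, 338 and 396 in the 3 bins of members. The tag was not thresholded, so cells of donor and recipient were not separated here.

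Markers of other lineages were found at low levels in members. Of 6 marker lists, Tc markers took 0.00651%, 0.00304%, 0.00390% and 0.00506% of UMIs outside hemoglobin, with Lck (40 UMIs) the most abundant of the 10 genes, Cd4 at 0 in 3 libraries and Trac at 0 in 2. In Tc the list took 0.522% and in lower-hemoglobin cells 0.000664 to 0.00108%, below each library's members. Macrophage markers took 0.00126 to 0.00488% in members against at most 0.000345% in lower-hemoglobin cells, megakaryocyte markers at most 0.00386% and basophil and mast cell markers at most 0.00244%. C1qb (27 UMIs), Vwf (40 UMIs) and Prss34 (25 UMIs) were the most abundant genes of these lists, and Gp1bb was at 0. B cell markers took 0.0460%, 0.0347%, 0.0323% and 0.117% in members against 0.00413%, 0.00395%, 0.00312% and 0.188% in lower-hemoglobin cells, higher in members in 3 of 4 libraries. Of the 865 members, 4 held at least 3 UMIs of the Tc list, 28 of the granulocyte list and 186 of the B cell list. Igkc had 1383 UMIs in members, 317, 303, 290 and 1084 CPM by library, while Ms4a1 had 3 UMIs. Their part in the results was not tested.

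Between genotypes, 4666 genes were tested in members with hemoglobin genes left out. None rose in the Havcr2fl/fl;E8icre/+ libraries (0%) and 21 fell (0.450%) in edgeR's quasi-likelihood test at a Benjamini-Hochberg adjusted p under 0.05, with 505 at an unadjusted p under 0.05, 158 of them higher and 347 lower. Of the 21, 10 encode ribosomal proteins, among them Rpsa, Rpl32, Rps4x, Rps18, Rps2, Rpl12, Rpl10a, Rpl29 and Rpl10, and Eif3h, Eif3f, Eef1b2 and Rack1 also serve translation. The remainder were Mt1, Pgls, Ddit3, Gapdh, Slpi, Rfc4 and Cebpb. All 81 tested ribosomal protein genes had estimates below 0, with a median of -0.89, against -0.01 for all genes tested. The 6 tested genes of the heme-regulated stress response were below 0 as well, with a median of -1.44, and only Ddit3 was called. The 4 tested progenitor genes were also below 0, with a median of -0.92 and none called. Ribosomal genes of a library share its depth and its cells and are not independent.

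Rpsa, a protein of the small ribosomal subunit, stood at 797, 474, 1685 and 2102 CPM after TMM normalization, and fell by 1.58 on the log2 scale (SE 0.29, edgeR adjusted p = 0.0263). Both Havcr2fl/fl;E8icre/+ libraries lay below both Havcr2fl/fl libraries. All 10 genes described here share this order because it was a condition of their choice. Rps4x (712, 473, 1361 and 1914 CPM) and Rps18 (515, 277, 1061 and 1101 CPM) fell by 1.47 and 1.46. Eef1b2, an elongation factor subunit, stood at 260, 189, 495 and 749 CPM, and Eif3h, an initiation factor subunit, at 51.3, 63.3, 141 and 180 CPM. Mt1, the metal-binding protein metallothionein 1, stood at 19.7, 29.8, 126 and 104 CPM and fell by 2.15 (SE 0.33, edgeR adjusted p = 0.0115). Its gene spans chr8:94179082-94180327 on the plus strand (GRCm38). Pgls, an enzyme of the pentose phosphate pathway, stood at 5.92, 3.58, 43.5 and 34.0 CPM on 3, 3, 26 and 24 UMIs. Gapdh, the glycolytic enzyme, stood at 78.9, 38.2, 191 and 156 CPM.

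Slpi and Cebpb, which are known from granulocytes, stood at 1.97, 11.9, 53.6 and 39.7 CPM and at 27.6, 14.3, 77.0 and 61.0 CPM. Granulocyte markers were highest in members of Havcr2fl/fl replicate 1, as given above. Without the 4 members that held at least 10 UMIs of the granulocyte list, an alternative added after the data were seen, 17 genes fell and Cebpb and Gapdh no longer passed (adjusted p = 0.0735 for both, edgeR), with log2 differences of -1.59 and -1.32 in place of -1.78 and -1.62. No gene of heme synthesis, iron handling, the membrane, organelle clearance or the cell cycle lists passed it, and Alas2 stood at 3668, 3879, 4272 and 3361 CPM and Xpo7 at 3644, 3750, 3401 and 2649 CPM. The number of calls moved with single libraries left out, in fits where the lone library of a genotype is assumed to vary like those of the other. It was 10 without Havcr2fl/fl;E8icre/+ replicate 1, 1 without replicate 2, 64 without Havcr2fl/fl replicate 1 and 127 without Havcr2fl/fl replicate 2, and it was 1, a gene that rose, when cells from a hemoglobin share of 10% were included.

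The lower ribosomal share of the Havcr2fl/fl;E8icre/+ members was also seen within bins of hemoglobin share. At 20 to 40% ribosomal protein genes took 9.51%, 6.86%, 15.4% and 14.5% of UMIs outside hemoglobin, and at 60 to 100% 3.24%, 3.29%, 6.67% and 7.08%, in both cases without overlap of the genotypes. At 40 to 60% the values were 4.41%, 6.1%, 6.07% and 8.15%, with overlap. With 2 libraries per genotype no exact test of these values can pass 0.05. Organelle clearance genes took 7.24%, 7.23%, 5.68% and 5.47% at 60 to 100%, where the Havcr2fl/fl;E8icre/+ libraries were the higher ones. At 40 to 60% these genes took 3.34%, 3.79%, 2.19% and 2.47%, in the same order of genotypes. At 20 to 40% the values were 0.844%, 0.699%, 0.708% and 0.728%, with overlap.

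**Figure D5:**
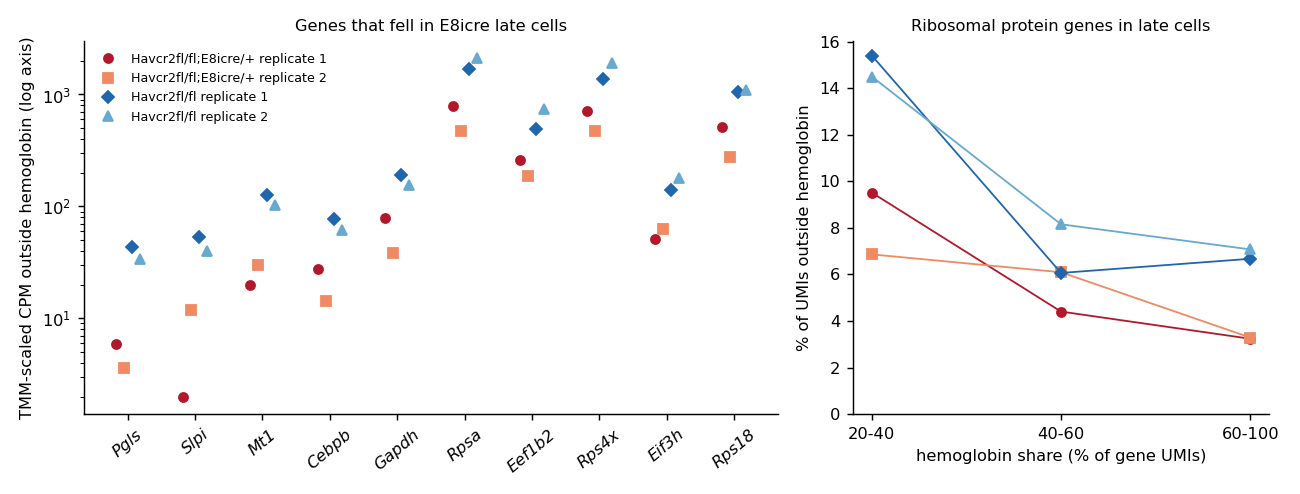
Left, TMM-normalized CPM (logarithmic axis) in members for the 10 described genes that fell in Havcr2fl/fl;E8icre/+ libraries, 1 point per library; right, percent of UMIs outside hemoglobin from ribosomal protein genes in 3 bins of hemoglobin share, 1 point per library. Both Havcr2fl/fl;E8icre/+ libraries lie below both Havcr2fl/fl libraries for each gene, which was a condition of their choice, and in the first and last bins.

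Whether these differences were particular to members was tested as an interaction of class and genotype, with the mouse as a block. Of 9219 genes, 68 (0.738%) had a genotype difference that lay higher in members than in lower-hemoglobin cells and 173 (1.88%) one that lay lower (edgeR at the same threshold), and before adjustment 1129 passed 0.05. Among ribosomal protein genes 57 of 82 passed, all below 0. In the lower-hemoglobin cells by themselves 9 of 10629 genes passed between genotypes, none of them among the 21, and the ribosomal median was -0.07. Estimates in these cells lay below 0 for all 22 membrane, 8 heme synthesis, 17 G2 and M phase and 15 S phase genes. For progenitor genes this held for 1 of 11. Lower-hemoglobin cells with a hemoglobin share of 0 to 0.1% numbered 311 of 383, 142 of 192, 47 of 76 and 807 of 1563. The part of this unequal mix in the interaction calls was not tested. The interaction did not pass for 3 of the 21, namely Slpi (0.27, adjusted p = 1), Ddit3 (-0.64, adjusted p = 0.235) and Cebpb (-1.31, adjusted p = 0.0539, all edgeR), and the estimate for Slpi was lower in lower-hemoglobin cells (-3.42, SE 1.64) than in members (-2.52, SE 0.53). That the other 18 passed rests in part on the member values that chose them. Mt1 stood at 696, 896, 1034 and 520 CPM in lower-hemoglobin cells, and its interaction was -2.27 (SE 0.30, edgeR adjusted p = 8.7e-11). Bcl11a stood at 8.13, 1.13, 81.1 and 29.5 CPM in members and at 301, 260, 213 and 205 CPM in lower-hemoglobin cells, an interaction of -4.25. In members alone its adjusted p was 0.0963 (edgeR). Without a library, the calls numbered 157 and 50 for Havcr2fl/fl;E8icre/+ replicates 1 and 2, and 121 and 86 for Havcr2fl/fl replicates 1 and 2.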

How the data were processed

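Single-cell 3′ RNA libraries of 4 mice were read as deposited, as whole-number UMI counts per gene and barcode that the authors made with Cell Ranger 6.1.2 on mm10, per the submitters' processing notes, with no normalization. The annotation release is not given in the sources used here. All 32285 gene identifiers entered, and the antibody tag was kept apart. The 4 libraries held 15784 barcodes, of which 11632 passed the cell filters; the gene Ahsp was not analysed here, and a few genes are not reported here. Members, gene lists and tests were chosen with earlier results of these data known, so a pattern seen in those results has no independent support here.

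UMIs were summed per library and class. Between genotypes they were tested with edgeR 4.0.16 in R 4.3.3 (quasi-likelihood test on TMM-scaled sums after filterByExpr; called below 0.05 after Benjamini-Hochberg adjustment) without globin genes. Cells were not treated as replicates. Each sample is 1 mouse, 2 per genotype. Single values per library were compared by exact permutation with scipy 1.17.1, and shares have 95% exact binomial intervals. On simulated data of the same depth the genotype test recovered 31.2% of genes changed 2-fold and 89.5% of those changed 4-fold among 4471 genes, and the interaction test 17.7% and 46.4% among 8983. The simulation gave all genes the same dispersion and held no difference shared by the genes of a library. Recovery in the real libraries can therefore differ from these rates. Named genes were all list members, the 15 largest differences each way between classes, up to 10 genes that fell with libraries apart and at least 20 CPM, and the 5 interaction genes of smallest p. Genes singled out among the most abundant transcripts and the remaining calls were named after their values were seen. Doublets were scored with Scrublet in scanpy 1.11.5, which called 5, 5, 9 and 122 kept cells and 0, 0, 1 and 1 members; no cell was removed. Alternatives were other limits on hemoglobin share, genes and mitochondrial UMIs, the highest Scrublet scores left out, DESeq2 1.42.0, edgeR with its size factors, no filter on low counts, hemoglobin kept, the replicate number as a block, and each library left out. Sequences came from RefSeq and GENCODE M21 on GRCm38.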

Additional observations from a re-analysis of the deposited data

Results flagged for a closer look

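For 5 genes the genotype difference in members departed most clearly from that in lower-hemoglobin erythroid cells (edgeR interaction, smallest p). The immunoglobulin gene Iglc1 had an interaction of 3.81 on the log2 scale, with 38.6, 109, 0 and 128 CPM in members and 4.12, 13.4, 0.289 and 214 CPM in lower-hemoglobin cells. Ighm had 3.63, with 69.1, 23.7, 14 and 32.3 CPM against 9.24, 4.34, 2.89 and 96.9 CPM. For both genes the lower-hemoglobin cells of Havcr2fl/fl replicate 2 stood above the other libraries, and without that library the values were 7.07 and 0.48 with adjusted p of 0.825 and 0.954 (edgeR). Bcl11a had -4.25, on 78 UMIs in all members. Mt1 had -2.27. Rpl12, a ribosomal protein gene, had -1.42, with 504, 256, 823 and 1049 CPM in members and 4272, 4103, 3615 and 4570 CPM in lower-hemoglobin cells.

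Of all barcodes with a hemoglobin share of at least 20%, the filters left out 970, or 49.8% of 1947, and 963 of them for having fewer than 500 genes. Their median hemoglobin share was 81.8%, 81.6%, 87.5% and 79.6% by library and their median number of genes 209, 238, 280 and 268. The most hemoglobin-rich barcodes are therefore not among the 865 members.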

How the results depend on the processing

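Depth was one limit: members held 491811 to 887042 UMIs outside hemoglobin per library, and genes under the count filter were not tested. The number of genes called between genotypes in members was 21 and came to 1 with members taken from a hemoglobin share of 10% and 11 from 40%, 32 with at least 1000 genes, 12 with at most 5% mitochondrial UMIs, 47 with DESeq2, 12 with edgeR on DESeq2's size factors, 97 without a filter on low counts, and 1 to 127 with a library left out (the lone library then assumed to vary like the others). The replicate numbers of the genotypes were not shown to pair the mice, since deviations of equally numbered libraries correlated across genes with r = 0.0341, and with the number as a block 70 genes were called, 20 of them among the 21. The causes were not tested. The interaction calls (241) ranged from 50 to 157 with a library left out and from 181 to 249 under the other settings. Genes past the fold were 382 higher and 1872 lower with hemoglobin UMIs kept, 2501 lower with no minimum level, and 534 and 685 against cells of 1 to 20% hemoglobin share. The genotype difference in the share among kept cells ranged from -3.59 to 0.782 percentage points and that among erythroid cells from -17.8 to 26 with a library left out, and the latter was -0.622 for members from 40%. The alpha to beta difference ranged from -0.0558 to 0.0781 with a library left out and was -0.00836 with at least 1000 genes. The tag contrast turned to 0.987 per UMI outside hemoglobin. Of the named genes, none reversed, and 42 of their values under an alternative no longer passed the threshold.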

Other observations

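The 927 left-out hemoglobin-rich barcodes without a Cd3 UMI held 611808 UMIs outside hemoglobin. Their summed levels were 16748, 20147, 20414 and 10981 CPM of Alas2 and 13988, 23339, 18708 and 13741 CPM of Bpgm. For both genes each library lay above the mean of the members with a hemoglobin share of 60 to 100%, which was 7441 and 7055 CPM. Xpo7 and Tmcc2 did not continue the climb seen along the members, with means of 3504 and 3620 CPM against 11209 and 9256 CPM in that last bin. Bcl2l1, the BCL-XL gene, had 1952 CPM. G2 and M phase genes took 0.331% of UMIs outside hemoglobin and ribosomal protein genes 7.02%. Gm42418 had 65663 CPM and the immunoglobulin gene Igkc 1985 CPM. These barcodes had a median of fewer than 300 genes in each library, and no test was run on them.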
